A study of Homo sapiens with 12 samples.

Results

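The BCL2 family decides whether the outer mitochondrial membrane is opened during apoptosis, and 10 of its genes were followed here in CAMA-1 cells, a long-established line from a human breast tumour in which the oestrogen receptor (ER) is expressed. The 10 genes were taken by symbol from a table of 60612 named genes. They were BCL2, BCL2L1 and MCL1, which restrain apoptosis, BAX and BAK1, which form the membrane pores, and BBC3, BMF, BIK, BID and PMAIP1, which encode BH3-only proteins. Poly(A)-primed 3′ RNA sequencing was run on CAMA-1 cells labelled wild-type that received the vehicle DMSO, abemaciclib at 100 nM, fulvestrant at 5 nM, or abemaciclib and fulvestrant together, for 5 days per the study. Abemaciclib is an inhibitor of the kinases CDK4 and CDK6, and fulvestrant is a selective ER degrader. The doses are those of the labels, and the study's methods name a higher abemaciclib dose for experiments not otherwise noted. For the combination no separate doses are labelled. There were 3 libraries in each of the 4 groups, which the study describes as independent biological replicates of this single cell line.

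In healthy cells the anti-apoptotic proteins BCL2, BCL-XL (from BCL2L1) and MCL1 hold the effectors BAX and BAK in check. BH3-only proteins such as PUMA (BBC3), BMF, BIK, BID and NOXA (PMAIP1) bind the anti-apoptotic proteins, and some also activate the effectors directly. BCL2 is widely known as an ER-responsive gene in luminal breast cancer cells. Transcript levels do not show protein levels, and MCL1 and NOXA proteins in particular are short-lived.

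Library totals ran from 3299119 to 5164667 reads, and levels are given as CPM (the reads of a gene scaled to the same total in every library) on library sizes scaled by the TMM method. The luminal markers chosen for the line (8 genes, among them GATA3 and KRT8) summed to between 5670 and 7790 CPM per library, and the 9 markers of other cell types to between 14.8 and 28.7 CPM, nearly all of it COL1A1 (14.2 to 25.9 CPM). The drug checks moved as follows. GREB1, a classical ER target, averaged 80.9 CPM in DMSO, 127 CPM with abemaciclib, 4.61 CPM with fulvestrant and 7.66 CPM with the combination. MKI67, which marks dividing cells, averaged 509 CPM, 54.0 CPM, 43.6 CPM and 2.21 CPM in the same order. All 12 libraries correlated best with a library of their own group. Because RNA came from whole cultures, fewer cells carrying a transcript and less of it per cell cannot be told apart.

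The 10 genes lie on 7 chromosomes of GRCh38 and are all annotated as protein coding in GENCODE release 44. BCL2 spans chr18:63123346-63320128 on the minus strand, BCL2L1 chr20:31664452-31723989 (minus) and MCL1 chr1:150560895-150579738 (minus). BAX spans chr19:48954815-48961798 (plus) and BAK1 chr6:33572547-33580293 (minus). BBC3 spans chr19:47220822-47232766 (minus), BMF chr15:40087890-40108892 (minus), BIK chr22:43110750-43129712 (plus), BID chr22:17734138-17774770 (minus) and PMAIP1 chr18:59899996-59904305 (plus). Reads of this library type fall near the 3′ end of a transcript. In the last 2000 bases of the annotated gene, MCL1 overlaps ADAMTSL4-AS1 on the same strand and ADAMTSL4 on the other, BAK1 overlaps GGNBP1 on the other strand, and BMF overlaps BMF-AS1 on the other strand. The sources do not say whether reads were counted by strand or how reads in an overlap were assigned. The effect of these partners on the counts of MCL1, BAK1 and BMF is therefore not known. With the spans of release 44, the same-strand overlap of MCL1 would remain with counting by strand. The splice forms of BCL2L1 and MCL1 are not separated.

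BMF, BBC3 and BCL2 had the widest ranges of mean level over the 4 groups (2.79, 1.86 and 1.33 on the log2 CPM scale), and their RefSeq promoters are shown for that reason. Each runs 5′ to 3′ from 250 bases before to 50 bases after an annotated start site on GRCh38.p14. BMF has 2 start sites in the table. Capitals mark matches, on either strand, to any of the motifs searched: the oestrogen response element (GGTCANNNTGACC), its single arm (GGTCA), a FOXO site (GTAAACA), E2F sites (TTTCCCGC or TTTGGCGC), an AP-1 site (TGANTCA) and the CCAAT box (CCAAT). A full oestrogen response element also holds 2 copies of the arm.
BCL2, chr18:63319720-63320019, minus: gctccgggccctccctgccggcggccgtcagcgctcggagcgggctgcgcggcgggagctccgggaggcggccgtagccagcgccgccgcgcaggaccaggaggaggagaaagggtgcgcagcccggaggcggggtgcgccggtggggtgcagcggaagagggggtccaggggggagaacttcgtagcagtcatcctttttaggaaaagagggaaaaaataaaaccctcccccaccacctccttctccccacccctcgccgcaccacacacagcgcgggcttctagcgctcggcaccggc
BBC3, chr19:47232618-47232917, minus: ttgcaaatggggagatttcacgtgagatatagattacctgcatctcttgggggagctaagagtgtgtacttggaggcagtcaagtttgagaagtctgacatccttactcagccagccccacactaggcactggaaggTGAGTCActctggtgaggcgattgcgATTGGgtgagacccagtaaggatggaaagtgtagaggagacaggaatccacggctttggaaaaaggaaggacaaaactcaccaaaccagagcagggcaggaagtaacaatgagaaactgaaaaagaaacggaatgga
BMF, upstream start, chr15:40108830-40109129, minus: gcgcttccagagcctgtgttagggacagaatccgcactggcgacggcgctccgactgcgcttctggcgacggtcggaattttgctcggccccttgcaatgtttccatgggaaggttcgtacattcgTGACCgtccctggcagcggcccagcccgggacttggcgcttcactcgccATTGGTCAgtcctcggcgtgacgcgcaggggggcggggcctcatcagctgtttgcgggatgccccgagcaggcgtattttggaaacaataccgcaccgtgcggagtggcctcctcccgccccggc
BMF, downstream start, chr15:40106917-40107216, minus: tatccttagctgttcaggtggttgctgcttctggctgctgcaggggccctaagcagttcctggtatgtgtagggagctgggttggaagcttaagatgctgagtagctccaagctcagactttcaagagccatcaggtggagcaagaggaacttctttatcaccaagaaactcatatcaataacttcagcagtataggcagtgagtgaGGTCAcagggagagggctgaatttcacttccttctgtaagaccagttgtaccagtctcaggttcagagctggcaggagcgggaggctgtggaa

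The BCL2 window held none of these motifs and was 70.7% G or C, against a median of 58.7% over 35116 promoters of the same length. The BBC3 window was 48.0% G or C and held an AP-1 match 113 bases before the start and a CCAAT match 87 bases before it. The upstream BMF window held 2 matches to the single arm and a CCAAT match, written in the reverse orientation and overlapping the second arm, and the downstream BMF window held 1 match to the arm. Over all promoters, 37.4% held the arm, 34.6% a CCAAT box, 7.71% an AP-1 match and 0.057% the full oestrogen response element. The FOXO site was in 3.42% of promoters and the E2F sites in 1.63% and 0.652%. Over the 14 windows of the 8 members with an entry, matches were otherwise the arm in BAX and BID and a CCAAT box in BAX and BAK1. MCL1 and BIK had no entry. A match is a description of letters in the window and not a measured binding site.

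In vehicle-treated cells MCL1 was the most abundant of the 10 transcripts and PMAIP1 the least. Because 3′ reads count transcripts with little dependence on length, CPM values were set side by side without division by length. Mean levels in DMSO fell in the order MCL1 (182 CPM), BBC3 (79.7 CPM), BID (54.1 CPM), BCL2L1 (44.02 CPM), BAK1 (27.7 CPM), BIK (16.6 CPM), BAX (13.5 CPM), BCL2 (8.504 CPM), BMF (4.83 CPM) and PMAIP1 (1.32 CPM). No pair of neighbours in this order overlapped in its 3 libraries. The median tested gene averaged 24 CPM, so BCL2 and BMF lay in the lower part of the range, at the 26th and 16.4th percentiles. With fulvestrant alone and with the combination BMF stood at place 4 instead of 9. In both groups BMF, BIK, BID and BAK1 followed in that order, with each overlapping the next. These 4 genes lay between 21.7 and 36.4 CPM with fulvestrant and between 23.1 and 36.9 CPM with the combination.

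**Figure D1:**
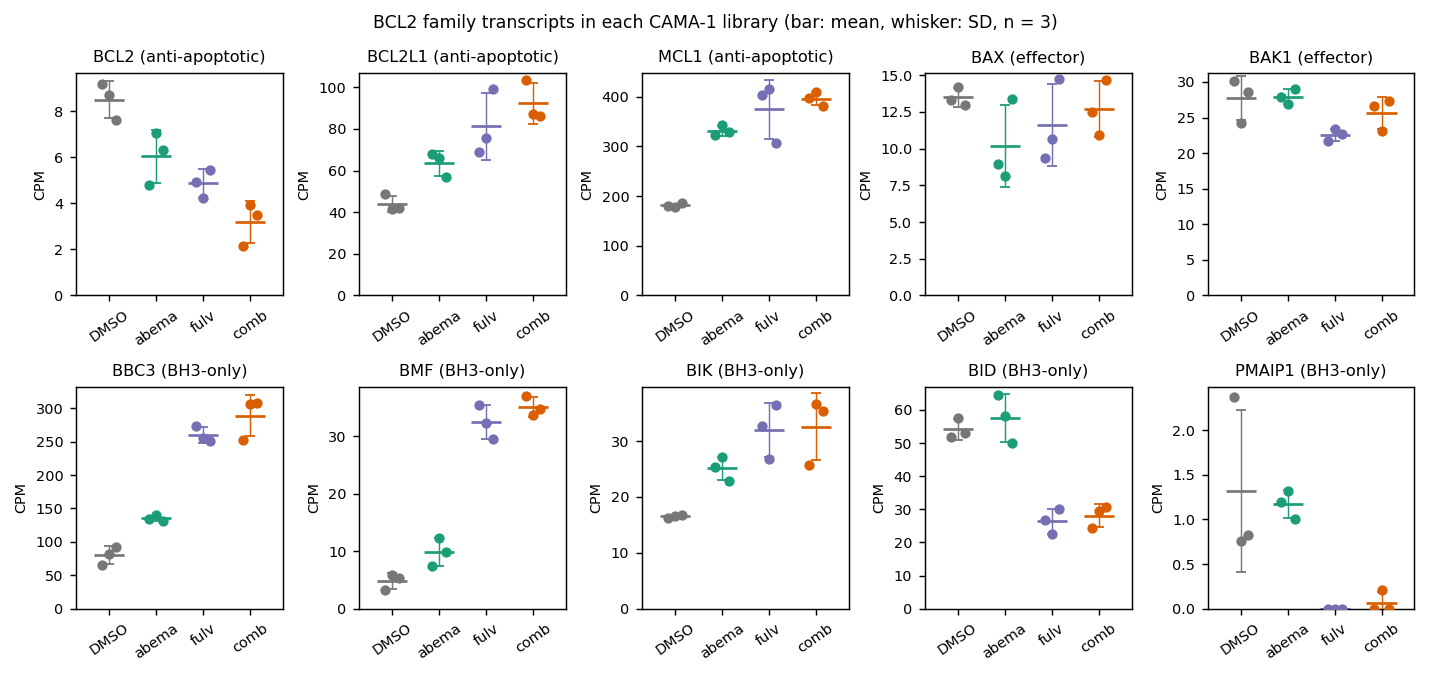
CPM of the 10 BCL2 family genes (y axes, each from 0) in the 12 libraries, by treatment (abema, abemaciclib; fulv, fulvestrant; comb, combination). Points are libraries, bars means and whiskers SD (n = 3). MCL1, BCL2L1, BBC3, BMF and BIK lie lowest in DMSO, BCL2 lies highest in DMSO, BID separates the libraries without fulvestrant (50.1 to 64.6 CPM) from those with it (22.5 to 30.6 CPM), and PMAIP1 was at or near 0 with fulvestrant.

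The anti-apoptotic genes moved in opposite directions: BCL2 transcripts fell with fulvestrant and with the combination, whereas BCL2L1 and MCL1 rose in every drug group. BCL2 was at 9.17, 8.71 and 7.63 CPM in the DMSO libraries and at 4.79, 7.04 and 6.30 CPM with abemaciclib. It was at 4.93, 4.22 and 5.45 CPM with fulvestrant and at 2.16, 3.92 and 3.49 CPM with the combination. Every treated library lay below every DMSO library, and every combination library lay below the fulvestrant and abemaciclib libraries. Against DMSO the log2 fold change was −0.79 ± 0.26 (SE, adjusted p = 0.0150) with fulvestrant and −1.38 ± 0.28 (adjusted p = 1.2e-04) with the combination, a fall to 0.384 of the DMSO level. With abemaciclib alone it was −0.49 ± 0.25 and did not pass (adjusted p = 0.120, 95% interval −1.01 to 0.02). All adjusted p-values come from edgeR's quasi-likelihood F test over 11803 genes. The fulvestrant call was lost without fulvestrant replicate 2 (−0.70, adjusted p = 0.0515). BCL2 rested on 114 reads over the DMSO group, 81 with abemaciclib, 59 with fulvestrant and 46 with the combination, which limits its precision, and it was not tested when 10 reads were required in every library.

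MCL1, the anti-apoptotic gene with the highest level, rose 1.83-fold with abemaciclib, 2.06-fold with fulvestrant and 2.18-fold with the combination. Its DMSO libraries held 180, 179 and 186 CPM. The abemaciclib libraries held 323, 343 and 328 CPM, the fulvestrant libraries 403, 415 and 307 CPM, and the combination libraries 398, 409 and 382 CPM. All 9 treated libraries lay above DMSO, and fulvestrant replicate 3 lay apart from the other two of its group. The log2 changes against DMSO were 0.87 ± 0.09 (adjusted p = 1.0e-08), 1.05 ± 0.09 (adjusted p = 1.4e-10) and 1.13 ± 0.09 (adjusted p = 2.4e-11). Without fulvestrant replicate 3 the fulvestrant value was 1.17.

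BCL2L1, which encodes BCL-XL, rose by smaller steps. Its levels were 48.5, 41.5 and 42.0 CPM in DMSO and 68.0, 65.8 and 56.7 CPM with abemaciclib. They were 68.7, 75.7 and 99.3 CPM with fulvestrant and 104, 87.2 and 86.2 CPM with the combination. No treated library overlapped DMSO, whereas fulvestrant and combination libraries overlapped each other, with fulvestrant replicate 3 the highest of its group. The log2 changes against DMSO were 0.54 ± 0.13 (adjusted p = 0.00132) with abemaciclib, 0.90 ± 0.13 (adjusted p = 1.4e-06) with fulvestrant and 1.07 ± 0.12 (adjusted p = 4.8e-08) with the combination.

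The effector genes BAX and BAK1 passed the test in none of the comparisons. BAX averaged 13.5 ± 0.6, 10.2 ± 2.8, 11.6 ± 2.8 and 12.7 ± 1.9 CPM (SD, n = 3) in DMSO, abemaciclib, fulvestrant and the combination. Its change with abemaciclib was −0.43 on the log2 scale (95% interval −0.86 to 0.01, adjusted p = 0.109). The abemaciclib libraries were uneven, at 8.98, 8.14 and 13.4 CPM, and without abemaciclib replicate 3 the change was −0.65 and passed (adjusted p = 0.0291). BAK1 averaged 27.7 ± 3.1, 27.9 ± 1.1, 22.6 ± 0.8 and 25.7 ± 2.3 CPM. Its change with fulvestrant was −0.29 (95% interval −0.57 to −0.003, adjusted p = 0.0853), with every fulvestrant library below every DMSO library, and without DMSO replicate 2 it was −0.37 and passed (adjusted p = 0.0456). For the combination against DMSO the intervals were −0.50 to 0.33 for BAX and −0.37 to 0.17 for BAK1.

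The BH3-only genes split, with BBC3, BMF and BIK rising and BID and PMAIP1 lower wherever fulvestrant was given. BBC3, which encodes PUMA, was the most abundant of them. It was at 65.4, 81.7 and 92.1 CPM in DMSO and at 134, 140 and 132 CPM with abemaciclib. It reached 274, 255 and 250 CPM with fulvestrant and 253, 306 and 308 CPM with the combination. The groups formed 3 separate levels, since fulvestrant and the combination overlapped and no others did. BBC3 rose 1.68-fold (adjusted p = 1.2e-06), 3.24-fold (adjusted p = 1.2e-13) and 3.6-fold (adjusted p = 1.1e-14) against DMSO, with SE of 0.10 on the log2 scale in each case.

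BMF, whose protein is held at the cytoskeleton through dynein light chain in healthy cells, had the largest fold changes of the 9 tested members against DMSO. It was at 3.26, 5.87 and 5.36 CPM in DMSO and at 7.38, 12.3 and 9.83 CPM with abemaciclib. It was at 35.5, 32.3 and 29.5 CPM with fulvestrant and at 36.9, 33.6 and 34.7 CPM with the combination. The lowest fulvestrant library was thus above the highest abemaciclib library. BMF rose 1.95-fold with abemaciclib (log2 0.97 ± 0.23, adjusted p = 0.00152), 6.45-fold with fulvestrant (2.69 ± 0.20, adjusted p = 6.2e-12) and 6.97-fold with the combination (2.80 ± 0.19, adjusted p = 1.4e-12). DMSO replicate 1 was the lowest library for BMF and for BBC3. Without it the changes with abemaciclib, fulvestrant and the combination stayed past the threshold, at 2.53 for BMF and 1.58 for BBC3 with fulvestrant.

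BIK, a BH3-only protein of the endoplasmic reticulum, was at 16.3, 16.7 and 16.7 CPM in DMSO. It was at 25.3, 27.1 and 22.9 CPM with abemaciclib, 32.8, 26.7 and 36.4 CPM with fulvestrant and 25.7, 36.7 and 35.4 CPM with the combination. All treated libraries lay above DMSO and overlapped one another in part. BIK rose 1.52-fold (adjusted p = 0.00367), 1.94-fold (adjusted p = 1.2e-05) and 1.98-fold (adjusted p = 5.2e-06).

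BID, which caspase-8 cleaves to carry a death receptor signal to mitochondria, changed with fulvestrant and gave no call with abemaciclib. It was at 51.8, 57.6 and 52.97 CPM in DMSO and at 64.6, 58.3 and 50.1 CPM with abemaciclib, and these libraries overlapped. With fulvestrant it was at 26.9, 22.5 and 30.0 CPM and with the combination at 24.2, 29.5 and 30.6 CPM, all below the libraries without fulvestrant. The log2 change was 0.09 with abemaciclib (95% interval −0.15 to 0.34, adjusted p = 0.563), −1.03 ± 0.13 with fulvestrant (adjusted p = 2.3e-07) and −0.94 ± 0.13 with the combination (adjusted p = 5.2e-07).

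PMAIP1, which encodes NOXA, had too few reads for the filter on low counts and is given by its reads. The DMSO libraries held 8, 4 and 4 reads and the abemaciclib libraries 6, 6 and 4. The fulvestrant libraries held 0, 0 and 0 reads, and the combination libraries 0, 1 and 0. Pooled, this was 1.18 CPM (95% Poisson interval 0.677 to 1.92) in DMSO and 1.18 CPM (0.676 to 1.92) with abemaciclib. The pooled DMSO level was 4.72 times the floor of 3 reads over the fulvestrant group (0.25 CPM), and the exact interval of the fulvestrant level relative to DMSO, which covers the counting error of both groups, ran from 0 to 0.292. The combination was at 0.0595 of the DMSO level, with an exact interval from 0.00142 to 0.383. These intervals and the floor cover counting error only. In the fit with no filter on low counts, PMAIP1 passed for fulvestrant (adjusted p = 0.00124) and for the combination (adjusted p = 0.00485) against DMSO and for the combination against abemaciclib (adjusted p = 0.00951), and for abemaciclib against DMSO it did not (adjusted p = 1.00).

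**Figure D2:**
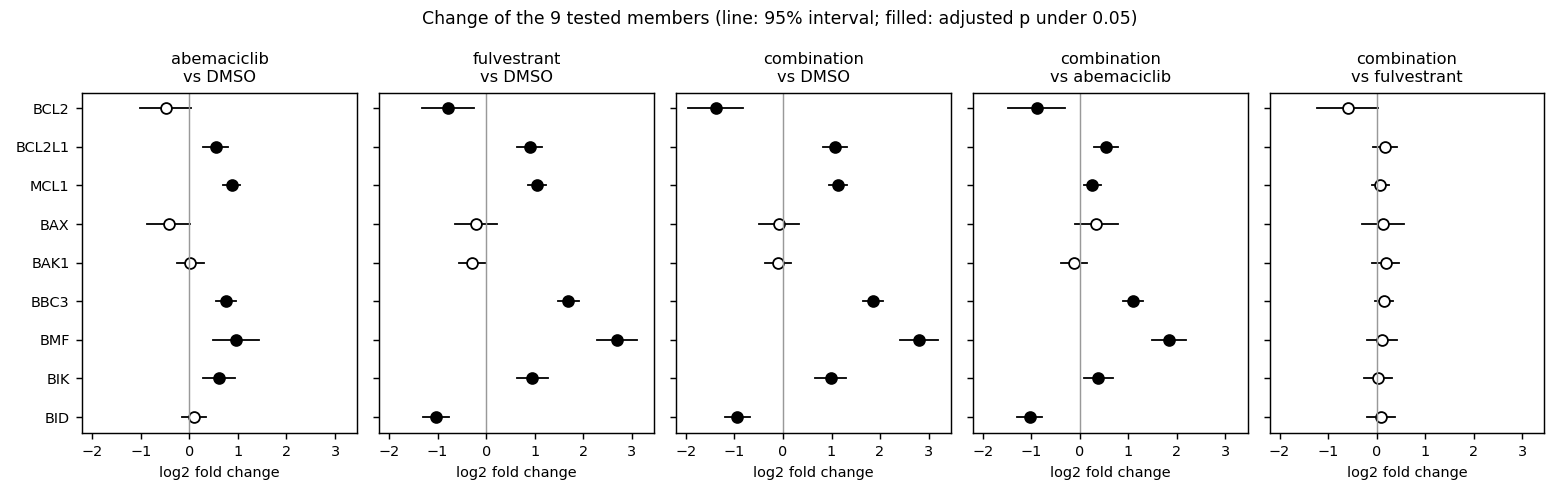
Log2 fold change (x axis) of the 9 tested members (y axis) in 5 comparisons. Points are edgeR estimates, lines 95% intervals, and filled points passed an adjusted p of 0.05. BMF reached 2.69 with fulvestrant and 2.80 with the combination, BCL2 and BID lay below 0 in both, and in the combination against fulvestrant no point is filled.

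Counted over the 9 tested members, 5 rose and 0 fell with abemaciclib (MCL1, BCL2L1, BBC3, BMF and BIK), beside 41.2% of all tested genes that passed in this comparison, 20.5% higher and 20.7% lower. By edgeR no member was called lower there, no more than the 5 called members reached an unadjusted p under 0.05, and DESeq2 also called 5. With fulvestrant 5 rose and 2 fell (BCL2 and BID), beside a background of 51.0% of genes, 25.3% higher and 25.7% lower. With the combination against DMSO the count was again 5 higher and 2 lower, beside 55.2% of genes, 27.7% higher and 27.5% lower. The median log2 change of the 9 was 0.54, 0.90 and 0.98 in these 3 comparisons, whereas the median of all tested genes was 7e-04, 0.0077 and 0.0105. The 3 comparisons share their DMSO libraries. Whether calls of this number among the 9 differ from so high a background was not tested, and nothing particular to the family is read from the counts.

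Adding fulvestrant to abemaciclib gave calls for most members, and adding abemaciclib to fulvestrant moved none past the threshold. Against abemaciclib alone, the combination gave 5 higher and 2 lower members, beside 33.5% of genes (15.9% higher and 17.7% lower). BMF rose 3.57-fold (log2 1.84 ± 0.17, adjusted p = 2.3e-09), BBC3 2.14-fold (1.10 ± 0.10, adjusted p = 8.8e-10) and BCL2L1 1.45-fold (0.53 ± 0.12, adjusted p = 1.0e-03). BID fell to 0.488 of the abemaciclib level (−1.04 ± 0.13, adjusted p = 2.8e-07). The other 3 calls were less firm. BCL2 was at −0.89 (adjusted p = 0.0186), which was lost without abemaciclib replicate 2 (−0.76, adjusted p = 0.0891), abemaciclib replicate 3 (−0.86, 0.0501) or combination replicate 1 (−0.69, 0.0902). MCL1 was at 0.26 (adjusted p = 0.0235), which was lost without abemaciclib replicate 1 (0.24, 0.0882) or 3 (0.25, 0.0764) and without combination replicate 1 (0.26, 0.0547) or 2 (0.23, 0.0885).

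BIK rose by 0.38 in the combination against abemaciclib (adjusted p = 0.0458) with overlapping libraries. That call was lost in 9 of 12 alternatives. Among these were DESeq2 (0.37, adjusted p = 0.0966) and the fits without abemaciclib replicate 1 (0.38, 0.0977), 2 (0.44, 0.0589) or 3 (0.32, 0.157) and without combination replicate 2 (0.29, 0.202) or 3 (0.32, 0.166). Without abemaciclib replicate 3 the count of called members in this comparison was 4.

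In the combination against fulvestrant alone, edgeR called 0 of the 9 members, 0 reached an unadjusted p under 0.05, and DESeq2 called 0. The background was low as well, at 1.92% of genes, 0.297% higher and 1.63% lower. It rested on 227 genes, a number that became 588 without fulvestrant replicate 3, 146 without combination replicate 3, 124 in a fit to these groups alone and 91 with at least 10 counts in every library. The intervals of the difference were −0.10 to 0.26 for MCL1, −0.06 to 0.42 for BCL2L1, −0.04 to 0.35 for BBC3 and −0.19 to 0.42 for BMF. They were −0.27 to 0.33 for BIK and −0.20 to 0.37 for BID. BCL2L1 came nearest to a call, at up to 0.354 without fulvestrant replicate 3. Its lowest adjusted p over the 12 edgeR and DESeq2 alternatives was 0.0509. BCL2 had the widest, −1.22 to 0.03 around −0.60 (adjusted p = 0.459), although its 3 combination libraries all lay below the 3 fulvestrant libraries.

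**Figure D3:**
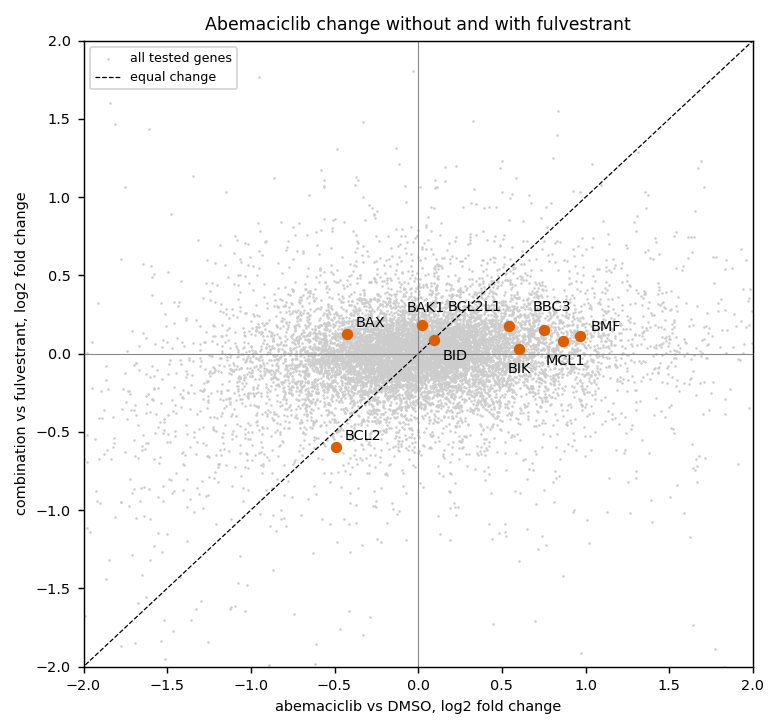
Log2 change with abemaciclib in the absence of fulvestrant (x axis) and in its presence (y axis). Each grey point is 1 of 11803 tested genes (294 lie outside the plotted range), orange points are the members, and the dashed line marks equal changes. MCL1, BMF, BBC3, BIK and BCL2L1 lie to the right at 0.54 to 0.97 and near 0 on the y axis, whereas BCL2 lies near the dashed line.

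Whether abemaciclib moved a member differently with and without fulvestrant was tested as the interaction, the change from fulvestrant to the combination minus the change from DMSO to abemaciclib. It passed for 3 of 9 members, all negative, beside 21.1% of genes (9.45% positive and 11.6% negative), with a member median of −0.36 against −0.0129 over all genes. MCL1 was at −0.79 ± 0.12 (adjusted p = 4.1e-05). Its single-drug changes summed to 1.91 on the log2 scale, and the combination reached 1.13. BBC3 was at −0.60 ± 0.14 (adjusted p = 0.00266), with a sum of 2.45 and a combination value of 1.85. BMF was at −0.85 ± 0.28 (adjusted p = 0.0274), with a sum of 3.66 and a combination value of 2.80.

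The MCL1 and BBC3 interactions passed in all 17 alternatives. The BMF call was lost without DMSO replicate 1 (−0.69, adjusted p = 0.0871), abemaciclib replicate 2 (−0.65, 0.129) or 3 (−0.85, 0.0505), fulvestrant replicate 1 (−0.79, 0.0615) or combination replicate 2 (−0.84, 0.0502). BIK was at −0.57 and narrowly missed (adjusted p = 0.0586), and it passed without fulvestrant replicate 2 (−0.68, 0.0252) or combination replicate 2 (−0.67, 0.0438). BCL2L1 was at −0.36 (adjusted p = 0.143). For BCL2 the sum of the single-drug changes was −1.28 and the combination value −1.38, and its interaction of −0.10 had a wide interval (−0.91 to 0.70). For BID the sum was −0.93 and the combination value −0.94 (interaction −0.01, 95% interval −0.39 to 0.37).

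Summed by role, the family's reads grew in the anti-apoptotic and BH3-only classes. These sums and shares are given as descriptions with no test. The 3 anti-apoptotic genes summed to 234 ± 4 CPM in DMSO, 401 ± 13 CPM with abemaciclib, 461 ± 44 CPM with fulvestrant and 492 ± 18 CPM with the combination. The 5 BH3-only genes summed to 157 ± 15, 229 ± 12, 351 ± 17 and 385 ± 39 CPM, and the effectors to 41.2 ± 2.6, 38.1 ± 3.8, 34.2 ± 3.2 and 38.4 ± 4.0 CPM (SD, n = 3). These effector sums hold BAX and BAK1 only. Those of DMSO and fulvestrant did not overlap (38.5 to 43.5 and 31.0 to 37.5 CPM), and those of all other pairs of groups did. The ratio of BH3-only to anti-apoptotic reads was 0.669 ± 0.073 in DMSO, 0.571 ± 0.018 with abemaciclib, 0.765 ± 0.081 with fulvestrant and 0.784 ± 0.098 with the combination, so it ranged less than either sum.

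Within each class the make-up shifted. BCL2 supplied 3.63% ± 0.34 of the anti-apoptotic reads in DMSO, 1.5% ± 0.26 with abemaciclib, 1.07% ± 0.24 with fulvestrant and 0.651% ± 0.193 with the combination. MCL1 supplied between 74.6% and 84.6% in every library, and there were 21.5 ± 2.5 MCL1 reads per BCL2 read in DMSO and 133 ± 45 in the combination. BBC3 supplied 50.7% ± 3.9 of the BH3-only reads in DMSO, 59.1% ± 1.8 with abemaciclib, 74.1% ± 1.8 with fulvestrant and 75.1% ± 0.5 with the combination. The ratio of BBC3 to BID reads was 1.47 ± 0.24, 2.36 ± 0.29, 9.95 ± 1.49 and 10.3 ± 0.2 in the same order, and that of BMF to BID reads 0.0886 ± 0.0223, 0.174 ± 0.052, 1.25 ± 0.24 and 1.26 ± 0.22.

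**Figure D4:**
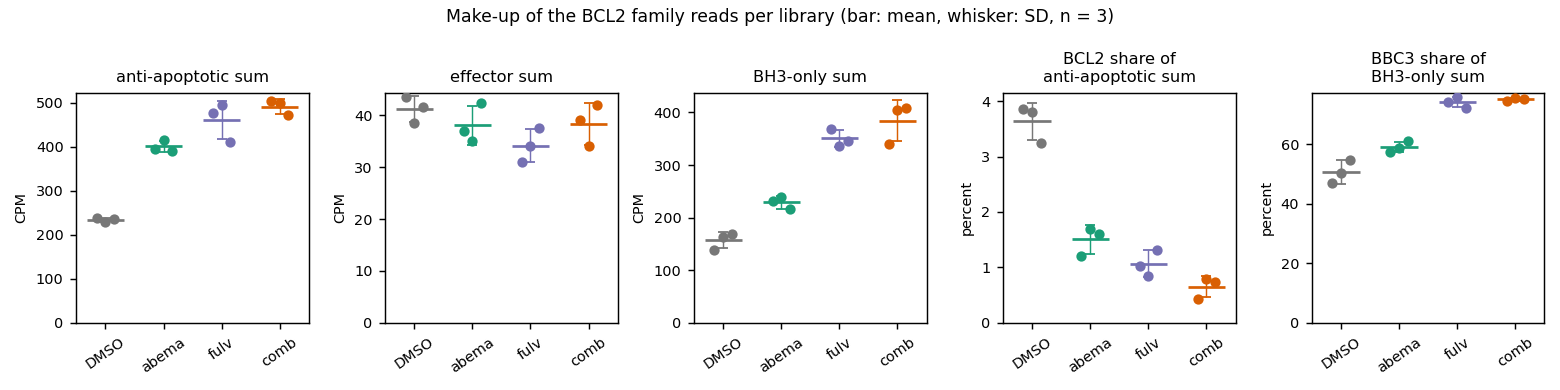
Summed CPM of the anti-apoptotic, effector and BH3-only genes, and the percentage of class reads from BCL2 and from BBC3 (y axes, each from 0), by treatment. Points are libraries, bars means and whiskers SD (n = 3). The anti-apoptotic sum went from 234 to 492 CPM between DMSO and the combination, while the BCL2 share went from 3.63% to 0.651%.

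Among 8463 genes averaging at least 10 CPM, the genes that correlated best with BMF over the 12 libraries were LRRC1, SORL1 and HERPUD1 (Pearson r = 0.987 each, log2 CPM). For BBC3 they were SLC35E2A (r = 0.992), NEO1 (0.992) and SOX13 (0.991). For BCL2 they were CDCA4 (r = 0.970), NR2C2AP (0.951) and CENPE (0.946), of which CENPE encodes a mitotic kinesin and averaged 167 CPM in DMSO, 42.1 CPM with abemaciclib, 18.8 CPM with fulvestrant and 4.32 CPM with the combination. The 12 libraries fall into 4 treatment groups, so these values describe shared group patterns, and not alike levels or sizes of change. LRRC1 averaged 77.5 CPM in DMSO and 112 CPM with the combination, and BMF 4.83 CPM and 35.1 CPM. MKI67 levels fell in the same order of groups as those of BCL2, and their part in the BCL2 result was not tested.

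The wider apoptosis pathway was read from 6 lists. Of 13 other BCL2 family genes 8 were tested, and 3, 4 and 3 passed with abemaciclib, fulvestrant and the combination against DMSO, shares at or below those of all tested genes (41.2%, 51.0% and 55.2%). BCL2L12 fell with fulvestrant (−1.45) and the combination (−1.59). BOK, an effector relative of BAX, rose with fulvestrant (log2 0.59) and with the combination (0.52), the latter lost without combination replicate 1 (0.38, adjusted p = 0.0696). The abemaciclib calls of this list were not firm, and their number fell to 0 without abemaciclib replicate 2. BOK was at 0.52 there (adjusted p = 0.0131), which was lost without DMSO replicate 3 (0.46, 0.0545), abemaciclib replicate 1 (0.48, 0.0507) or abemaciclib replicate 2 (0.42, 0.0816). BCL2L12 was at −0.27 (adjusted p = 0.0490), which was lost in 9 alternatives, among them DESeq2 (−0.27, 0.0819), the replicate block (−0.26, 0.0603) and the fits without DMSO replicate 2 (−0.26, 0.120) or 3 (−0.21, 0.198) and without abemaciclib replicate 1 (−0.22, 0.183), 2 (−0.28, 0.0880) or 3 (−0.29, 0.0712). BCL2L11, which encodes BIM, was at −0.38 with abemaciclib (adjusted p = 0.122), and in the combination against abemaciclib it rose by 0.61 (adjusted p = 0.0154), a call lost without abemaciclib replicate 1 (0.53, 0.0736) or combination replicate 2 (0.43, 0.130).

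Of 16 mitochondrial release factors and caspases, 15 were tested. With abemaciclib 4 rose and 3 fell, with fulvestrant 1 rose and 6 fell, and with the combination 2 rose and 8 fell. ENDOG, a mitochondrial nuclease, rose in all 3 (0.73, 1.07 and 1.09). APAF1, the scaffold of the apoptosome, fell with the combination (−0.88, adjusted p = 0.00195) and with abemaciclib (−0.71, adjusted p = 0.0141), the latter lost without DMSO replicate 2 (−0.67, 0.0545) or abemaciclib replicate 1 (−0.45, 0.133). DFFA, the inhibitor of the caspase-activated DNase, fell with fulvestrant (−0.91) and the combination (−0.75). CASP2 fell with abemaciclib (−0.55), fulvestrant (−0.45) and the combination (−0.33). Of all tested genes, 41.2%, 51.0% and 55.2% passed in these comparisons, and nothing particular to the list is read from its counts.

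Of 7 inhibitor of apoptosis genes 4 were tested, and 2, 3 and 3 passed, beside 41.2%, 51.0% and 55.2% of all genes. BIRC5 (survivin, which also acts in mitosis) averaged 214 ± 21 CPM in DMSO, 40.7 ± 1.9 CPM with abemaciclib, 18.9 ± 4.5 CPM with fulvestrant and 0.887 ± 0.441 CPM with the combination, and fell in each (adjusted p = 2.3e-15, 4.1e-18 and 6.0e-22). BIRC2 rose with fulvestrant (0.60) and the combination (0.78). With abemaciclib BIRC2 was at 0.36 (adjusted p = 0.0371), which was lost with DESeq2 (0.35, 0.0729) and without DMSO replicate 1 (0.28, 0.139) or 2 (0.39, 0.0646) and abemaciclib replicate 1 (0.37, 0.0679) or 2 (0.28, 0.168). XIAP, a direct caspase inhibitor, rose with fulvestrant (0.37) and the combination (0.54).

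Of 14 death receptor pathway genes 8 were tested, and 2 rose with abemaciclib, 2 rose and 2 fell with fulvestrant, and 1 rose and 2 fell with the combination. These shares were at or below the 41.2%, 51.0% and 55.2% of all genes, and without DMSO replicate 3 the abemaciclib count was 0. CFLAR, which encodes the caspase-8 inhibitor FLIP, rose with fulvestrant (1.06) and the combination (1.20). With abemaciclib CFLAR was at 0.66 (adjusted p = 0.0124), which was lost without DMSO replicate 3 (0.51, 0.0800) or abemaciclib replicate 3 (0.52, 0.0787). CASP8 was at 0.89 with abemaciclib (adjusted p = 0.0348). That call was lost without DMSO replicate 1 (0.93, 0.0708), 2 (0.90, 0.0913) or 3 (0.84, 0.103). It was also lost without abemaciclib replicate 1 (0.97, 0.0552) or 2 (0.70, 0.118). The receptor gene TNFRSF10A fell with fulvestrant (−0.50) and the combination (−0.68).

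Of 8 transcription factors known to act on BH3-only genes 7 were tested. With abemaciclib 2 rose and 2 fell, and with fulvestrant and with the combination 3 rose and 3 fell, beside 41.2%, 51.0% and 55.2% of all genes that passed. JUN, an AP-1 subunit, rose by 0.94, 1.21 and 1.23. FOXO1 rose with fulvestrant (1.24) and the combination (1.14). With abemaciclib FOXO1 was at 0.84 (adjusted p = 0.0121), which was lost without DMSO replicate 2 (0.65, 0.0905) or abemaciclib replicate 1 (0.66, 0.0878). FOXO3 rose with fulvestrant (1.14), with the combination against DMSO (1.08) and with the combination against abemaciclib (0.81), and with abemaciclib it was at 0.27 (adjusted p = 0.121). E2F1 fell in all 3 (−1.42, −2.85 and −4.27). ATF4 also fell in all 3 (−0.42, −0.43 and −0.39), and DDIT3 passed in none (−0.55, −0.18 and −0.02). MYC fell with the combination (−1.93, adjusted p = 0.00429) and with fulvestrant (−1.40, adjusted p = 0.0223), the latter lost without fulvestrant replicate 2 (−1.30, 0.0783) or 3 (−1.14, 0.0907) and in a fit to the compared groups alone (−1.39, 0.0529).

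Of 12 genes for factors that bind BCL2 family proteins or set their stability, all were tested, and 5, 7 and 5 rose and 1, 2 and 2 fell in the same 3 comparisons, beside 41.2%, 51.0% and 55.2% of all genes that passed. MARCHF5, a mitochondrial ubiquitin ligase, rose in all 3 (0.77, 0.80 and 0.75). USP9X, a deubiquitinase of MCL1, rose in all 3 (0.36, 0.50 and 0.50). HUWE1 (−0.18, 0.05 and 0.08) and BTRC (0.40, 0.50 and 0.31) passed in none of the 3. DYNLL2, a dynein light chain that binds BMF, rose with fulvestrant (0.64) and the combination (0.71). DYNLL1, the other dynein light chain of the list, fell with fulvestrant (−0.27, adjusted p = 0.00605) and the combination (−0.38, adjusted p = 2.2e-04). The fulvestrant call of DYNLL1 was lost without DMSO replicate 2 (−0.22, 0.0524). BAG3 rose with abemaciclib (0.54) and fell with fulvestrant (−0.52) and the combination (−0.72). FBXW7, a ubiquitin ligase for MCL1, fell with abemaciclib (−0.48, adjusted p = 0.00873), a call lost without DMSO replicate 1 (−0.33, 0.0647) or abemaciclib replicate 2 (−0.38, 0.0619). In the combination against fulvestrant, edgeR called BIRC5 (−4.31) and E2F1 (−1.43) over all 6 lists.

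**Figure D5:**
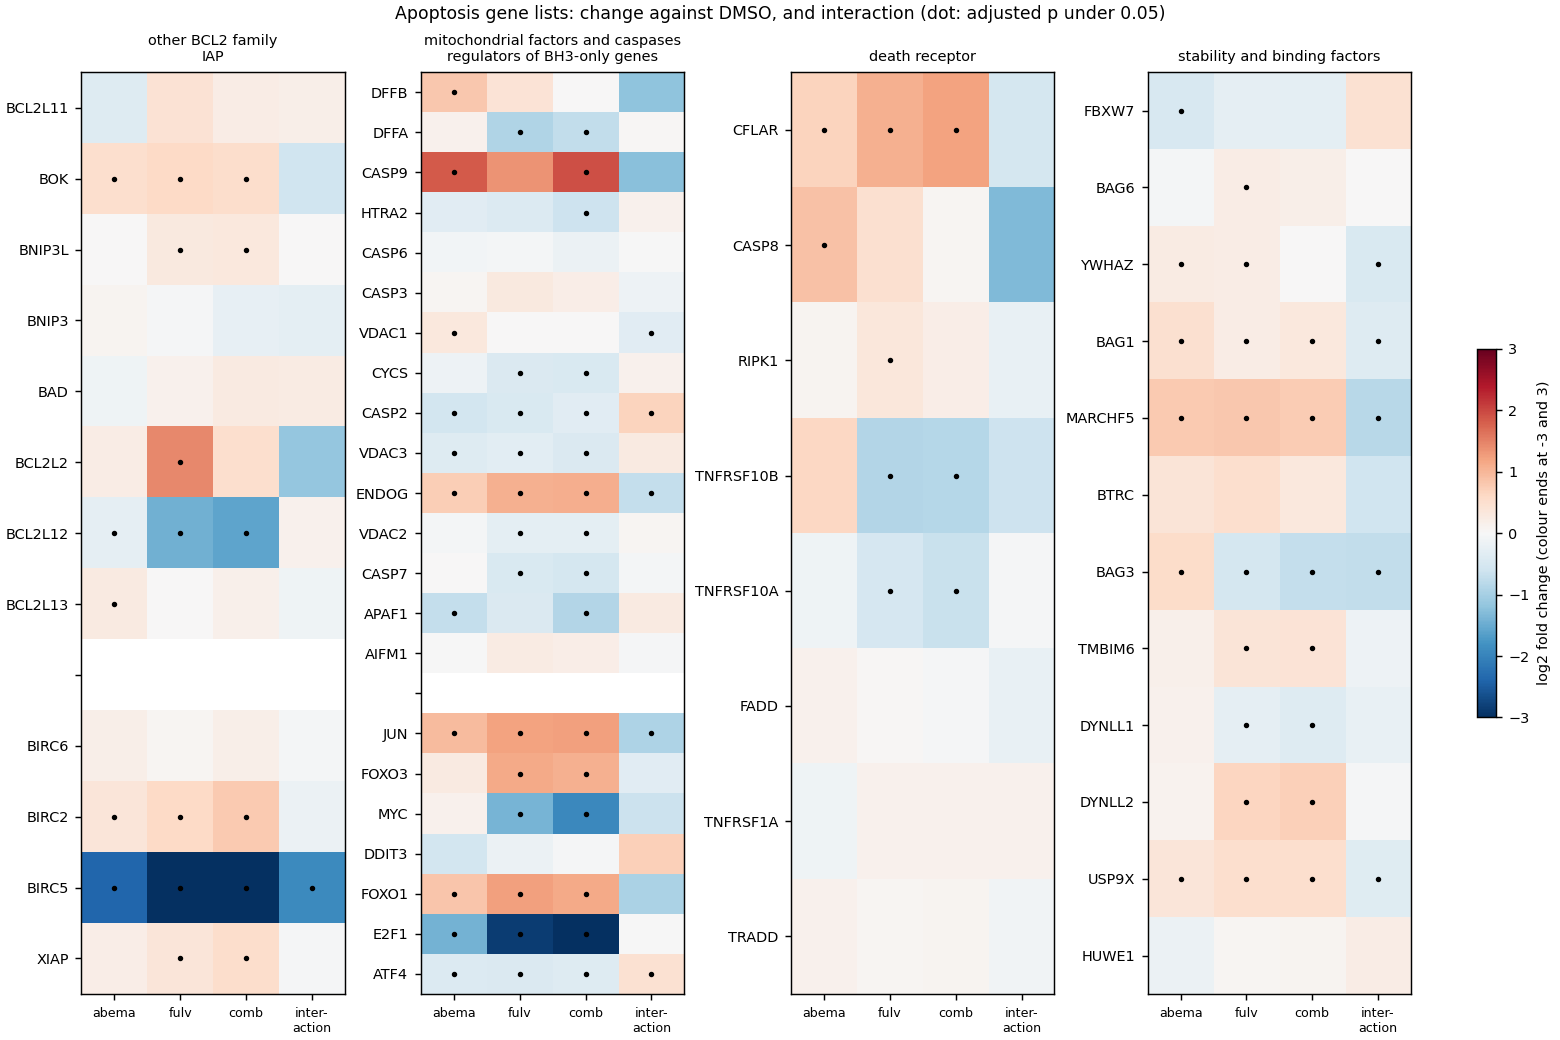
Log2 fold change (colour, ending at −3 and 3) of the tested genes of 6 apoptosis lists (rows) with abemaciclib (abema), fulvestrant (fulv) and the combination (comb) against DMSO and in the interaction (columns). A dot marks an adjusted p under 0.05. BIRC5 is blue throughout. Among the genes with a dot in all 3 drug columns, ENDOG, BIRC2 and CFLAR rose and E2F1, BCL2L12 and CASP2 fell.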

How the data were processed

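Raw counts of reads per gene symbol for 12 libraries were used as the authors deposited them. Upstream, reads had been trimmed (BBDuk v38.90), mapped to GRCh38 (STAR v2.7.5b) and assigned to genes of GENCODE release 35 (featureCounts v2.0.1). The strand setting is not given in the sources used here. No molecular identifiers are named. The Poisson and exact intervals given for PMAIP1 cover counting error only, whereas the intervals of log2 changes come from the edgeR fit over replicates. Of 60656 rows, 44 carried no name and 0 reads and were left out.

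Genes were kept by filterByExpr per group (minimum count 10, minimum total 15), which left 11803, among them 9 of the 10 members. In edgeR 4.0.16 (R 4.3.3, limma 3.58.1), a robust quasi-likelihood model of TMM-scaled counts with 4 group means gave the pairwise comparisons and the interaction, adjusted by Benjamini-Hochberg over all genes at 0.05. SEs came from the F statistic. Alternatives were DESeq2 1.42.0 (the study's tool), upper-quartile factors, other filters, the compared groups alone, a replicate block and each library left out. Scripts were tested on simulated data. Replicates differed by more than sampling noise (chi-square per degree of freedom 2.04 to 19.6).

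Members and lists were chosen with earlier results of these data known. From each list beyond the members, at most 4 genes per comparison could be named, those past the threshold with the largest change and at least 10 CPM in a compared group. Some genes that met this rule are not named for their results, among them VDAC3 and BAG1. CASP2 is also given for the combination against DMSO, where it did not meet the rule. BCL2L11, USP9X and FOXO1 with abemaciclib and FOXO3 against DMSO were named after their values were seen. So were ATF4, DYNLL1, DDIT3, HUWE1 and BTRC against DMSO, of which DDIT3, HUWE1 and BTRC gave no call. The 3 genes with the highest r were named for the 3 members with the widest range. Promoters came from RefSeq (GRCh38.p14). A further list and a gene are not reported here.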

Additional observations from a re-analysis of the deposited data

Results flagged for a closer look

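The change in MCL1 with abemaciclib differed between cells without and with fulvestrant, by −0.79 on the log2 scale (edgeR quasi-likelihood F test, adjusted p = 4.1e-05): it was 0.87 from DMSO and 0.08 from fulvestrant. BMF differed in the same contrast by −0.85 (adjusted p = 0.0274), with 0.97 from DMSO and 0.11 from fulvestrant. BBC3 differed by −0.60 (adjusted p = 0.00266), with 0.75 from DMSO and 0.15 from fulvestrant.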

How the results depend on the processing

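Of the 29 member results past the threshold, 24 stayed past it in the same direction under every alternative run. Over 54 member results and 687 alternative values, 645 kept direction and side of the threshold, 22 lost a call, 4 gained one and 16 changed sign. Every change of sign was in a result that was not called and came from leaving out a library. Over single libraries left out, BAK1 with abemaciclib against DMSO ranged from −0.0733 to 0.079 and BAX with the combination against DMSO from −0.21 to 0.0187. In the combination against fulvestrant, MCL1 ranged from −0.0462 to 0.159, BAX from −0.0184 to 0.35, BID from −0.0119 to 0.189 and BIK from −0.0778 to 0.165. The interaction ranged from −0.28 to 0.0814 for BCL2 and from −0.107 to 0.0945 for BID. The cause was not tested. The number of members called in the combination against abemaciclib ranged from 4 (without abemaciclib replicate 3) to 6 with a library left out, and the other 5 counts stayed within 1.5 times under all alternatives. Over all genes, the combination against fulvestrant gave 227 calls, 91 with at least 10 counts in every library, 124 from the compared groups alone, 146 without combination replicate 3 and 588 without fulvestrant replicate 3. BCL2 could not be tested with at least 10 counts in every library. Same-numbered replicates did not deviate together (median r = 0.0228 over 18 pairs, 2 of them over 0.1, and 5 of 12 libraries correlated best with their own number), so the numbers were not used as pairs. The highest r of any pair was 0.301, between DMSO replicate 1 and fulvestrant replicate 3, against at most 0.119 for same-numbered pairs. A factor shared by those 2 libraries was not tested. A fit with the replicate block moved BIK in the combination against abemaciclib to 0.37 (adjusted p = 0.0599) and changed no other member call. Of 462 alternative values of the counts for the 6 wider lists, 42 moved by over 1.5 times. The summed levels by role stayed within the spread of replicates under DESeq2 size factors, which by construction leave shares and ratios within a library as they are. Low counts limit BCL2, BMF and PMAIP1.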
